A study of Rattus norvegicus with 25 samples.

Results

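The comparison set sperm small RNA (smRNA) of 13 morphine-exposed F0 male rats against that of 12 saline-exposed F0 males, with collection time as a second, additive factor and no interaction. Libraries were chosen by whether their column was named MOR or SAL, and 25 of the 25 libraries of the series entered the comparison. The males were Sprague–Dawley rats fitted with jugular catheters that pressed a lever for intravenous morphine or for saline, so that the saline males shared the surgery, the catheter and the lever. Sperm were taken from the cauda epididymis and purified by a double swim-up, either as self-administration ended (F0_SAL, n = 7, and F0_MOR, n = 7) or after 90 days of abstinence (F0_ABS-SAL, n = 5, and F0_ABS-MOR, n = 6). Columns give the collection time as REG or TO. These were matched to the nonabstinent and abstinent males by group size, because no label spells them out. The labels call the libraries biological replicates without naming animals, so p-values measure the spread between these libraries. Abstinent males were sampled later than nonabstinent males and no label gives a batch, so age, batch and abstinence cannot be told apart in the time term, whereas the morphine term compares males within a collection time.

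Mature sperm carry little RNA and are largely silent in transcription. Their smRNA includes miRNAs kept from spermatogenesis and others taken up from vesicles during passage through the epididymis, next to fragments of ribosomal, nuclear and mitochondrial RNAs. A miRNA pairs with messenger RNAs chiefly through its seed, bases 2 to 8, and the suffixes 5p and 3p name the arm of the hairpin it was cut from. Paternal exposures, drugs included, have been studied through this cargo, since it enters the egg at fertilization.

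Mature sequences are shown for the miRNAs with an unadjusted p under 0.05 in the comparison that have an entry in RefSeq (rat build GRCr8). A small pooled p does not show that a difference was shared by both collection times. Capitals mark the seed.
rno-miR-31a-5p: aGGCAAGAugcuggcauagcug
rno-miR-340-5p: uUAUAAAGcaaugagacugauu
rno-miR-365-3p: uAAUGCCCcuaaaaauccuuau
rno-miR-3585-3p: uGAACGGCccuuguuguga
rno-miR-30e-5p: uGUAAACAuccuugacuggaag
rno-miR-222-3p: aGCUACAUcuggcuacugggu
rno-miR-293-5p: aCUCAAACugugugacacuuu
No pair of these miRNAs had the same seed. They lie in hairpin genes at chr5:108714906-108714927 (Mir31, minus strand), chr10:34894668-34894689 (Mir340-1, plus), chr10:65184271-65184292 (Mir365b, plus), chrX:151706741-151706759 (Mir3585, minus), chr5:139637504-139637525 (Mir30e, minus), chrX:6022682-6022702 (Mir222, plus) and chr1:74878501-74878521 (Mir293, minus). The miRNAs under that threshold also include rno-miR-150-5p and rno-miR-151-5p. Of the 317 miRNAs tested, 294 had a mature sequence in the table.

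No transcript was called between morphine and saline males over both collection times. A call took an adjusted p (Benjamini-Hochberg, over all transcripts of a matrix) below 0.1 by edgeR's quasi-likelihood test, with a log2 fold change at least 0.58 from zero. By this rule 0 of 317 miRNAs (0%) and 0 of 482 ncRNAs (0%) were called, and the smallest adjusted p was 0.929 among miRNAs and 0.82 among ncRNAs. An unadjusted p under 0.05 was found for 9 miRNAs (2.84%; 15.85 were to be expected at this threshold), 6 higher and 3 lower with morphine, and for 27 ncRNAs (5.6%; 24.1 to be expected), 2 higher and 25 lower. DESeq2, run on 562 miRNAs and 3804 ncRNAs, called 0 miRNAs and 0 ncRNAs, with 12 and 47 at an unadjusted p under 0.05. An exact permutation test of every transcript, chosen after seeing the data, also called 0 miRNAs and 0 ncRNAs, with 12 and 27 at an unadjusted p under 0.05 and smallest adjusted p of 0.894 and 0.863.

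The same model, fitted to the same libraries, called many transcripts for collection time. Between abstinent and nonabstinent males, adjusted for treatment, 110 miRNAs (34.7%) and 214 ncRNAs (44.4%) were called. The median absolute log2 fold change was 0.14 for morphine against 0.44 for collection time among miRNAs, and 0.19 against 0.65 among ncRNAs.

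**Figure D1:**
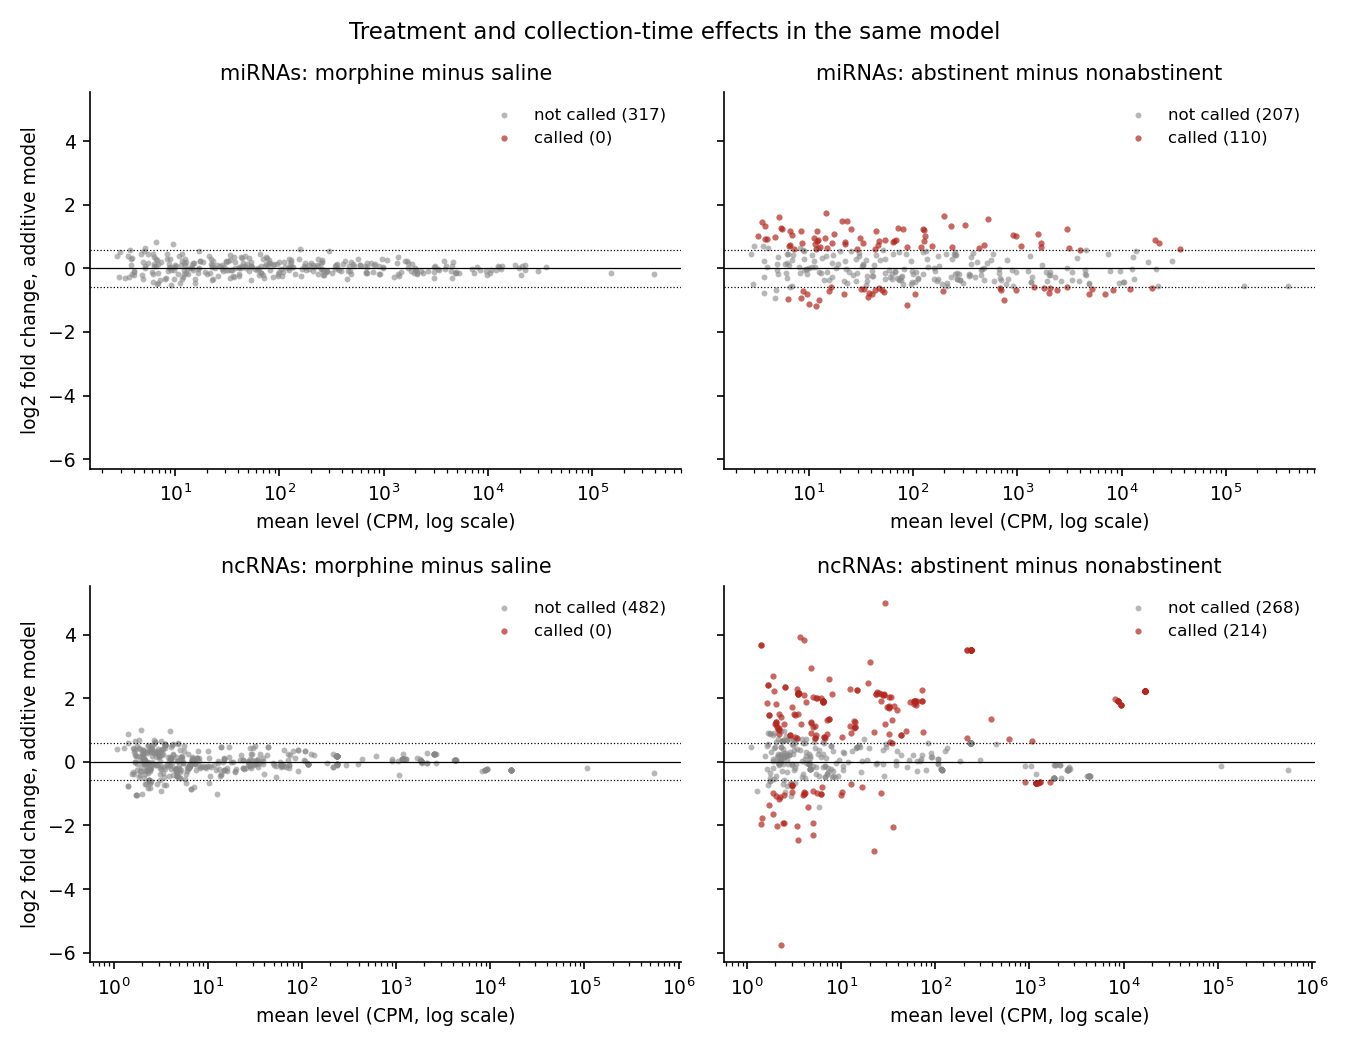
Log2 fold change (vertical axis) against mean level in CPM, counts scaled to library size (horizontal log axis) for the miRNAs and ncRNAs tested, each point 1 transcript. The left panels show morphine minus saline adjusted for collection time, the right panels abstinent minus nonabstinent adjusted for treatment; dotted lines mark 0.58 in either direction and red points are called, with 0 and 0 on the left and 110 and 214 on the right.

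The 95% intervals of the pooled fold changes bounded the size of a shared morphine effect, and far more tightly for abundant miRNAs than for scarce ncRNAs. The interval lay wholly within 0.58 of zero for 173 miRNAs (54.6%) and within 1 for 281 (88.6%). It did so for 129 of the 159 miRNAs at or above the median level of 74.3 CPM and for 44 of the 158 below it. Among ncRNAs, 93 intervals (19.3%) lay within 0.58 and 287 (59.5%) within 1. The median standard error of the pooled log2 fold change was 0.20 for miRNAs and 0.33 for ncRNAs, against 0.26 and 0.45 for F0_MOR versus F0_SAL and 0.29 and 0.51 for F0_ABS-MOR versus F0_ABS-SAL. Libraries held 1032386 to 3203211 counts on miRNAs and 1540914 to 6489784 on ncRNAs.

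The miRNAs that make up most of the sperm libraries had intervals that held zero. The most abundant, rno-miR-34c-5p, is made in germ cells late in spermatogenesis. It ranged from 362653 to 690484 CPM in F0_SAL (median 489461) and from 284526 to 468824 in F0_MOR (median 408624). After abstinence it stood at 248042, 253735, 299521, 356030 and 359931 CPM in the F0_ABS-SAL libraries and ranged from 154763 to 404175 in F0_ABS-MOR (median 348968). The groups overlapped at both times, and the pooled log2 fold change was -0.19 (95% interval -0.49 to 0.10). It depended on the scaling, at -0.077 with total count, -0.32 with a factor from both matrices joined and -0.0043 with log2 total count as a covariate. For rno-miR-7a-5p and rno-miR-148a-3p, next in abundance, the log2 fold changes were -0.14 (interval -0.46 to 0.17) and 0.06 (interval -0.28 to 0.39). The direction for rno-miR-148a-3p turned with the joined factor, and rno-miR-7a-5p was at -0.017 with total count scaling.

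Among the miRNAs with the smallest p, those higher with morphine were mostly higher in nonabstinent males. The first of them, rno-miR-150-5p, is enriched in mature lymphocytes. It ranged from 59.1 to 267 CPM in F0_SAL (median 89.4) and from 178 to 345 in F0_MOR (median 235). In the F0_ABS-SAL libraries it was 82.2, 99.4, 121, 144 and 173 CPM, and in F0_ABS-MOR it ranged from 101 to 167 (median 154). All 7 F0_MOR libraries were above the F0_SAL mean, though 1 F0_SAL library reached into the range of F0_MOR; after abstinence 5 of 6 F0_ABS-MOR libraries were above the F0_ABS-SAL mean and the groups overlapped throughout.

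Pooled over both times, rno-miR-150-5p differed by 0.62 on the log2 scale (standard error 0.20, interval 0.21 to 1.02, edgeR adjusted p = 0.929). It was 0.92 in nonabstinent and 0.24 in abstinent males, and the interaction of treatment and time gave an unadjusted edgeR p of 0.0854. The exact permutation test within collection time gave p = 0.00296, and 0.894 when adjusted over all 317 miRNAs. The call depended on the test and on 1 library: limma-voom with sample quality weights called it (adjusted p = 0.0276), and so did edgeR without the F0_SAL library of the highest level (adjusted p = 0.097). Of 9 leukocyte miRNAs tested 7 were higher with morphine, with a median of 0.14 beside 0.03 over all miRNAs. Their summed level ranged from 4807 to 6005 CPM in F0_SAL (median 5766) and from 5005 to 6925 in F0_MOR (median 5388). After abstinence it ranged from 4751 to 5983 CPM in F0_ABS-SAL (median 4939) and from 4721 to 5940 in F0_ABS-MOR (median 5448). The median sum was thus lower with morphine in nonabstinent males and higher in abstinent males. The median log2 fold change of the 9 members was 0.27 in nonabstinent and 0.12 in abstinent males. The sum gives most weight to rno-miR-146b-5p, with a mean of 3365 CPM beside 158 for rno-miR-150-5p. rno-miR-223-3p and rno-miR-142-3p, which define myeloid and blood cells, were above 0 in every library. The part of leukocytes in the value of rno-miR-150-5p was not tested. In such bulk libraries more cells of a type and more RNA per cell cannot be told apart.

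rno-miR-31a-5p, a miRNA of epithelia, was scarcer. It ranged from 1.7 to 11.7 CPM in F0_SAL (median 4.44) and from 6.38 to 26.6 in F0_MOR (median 12.3), then stood at 3.84, 7.89, 8.46, 10.9 and 11 in F0_ABS-SAL and ranged from 7.7 to 12 in F0_ABS-MOR. The lowest F0_MOR library lay above the F0_SAL median of 4.44, while after abstinence 1 F0_ABS-SAL library lay below all F0_ABS-MOR libraries and the others overlapped with them. Its pooled log2 fold change was 0.75 (standard error 0.29, edgeR adjusted p = 0.929), made of 1.16 in nonabstinent and 0.27 in abstinent males. It rested in part on the F0_MOR library with the highest level, without which the pooled log2 fold change was 0.56. rno-miR-151-5p, from an intron of the focal adhesion kinase gene, had 0.93 and 0.05, a difference with an unadjusted interaction p of 0.0393 (edgeR). Its pooled value went from 0.54 to 0.33 without F0_MOR library T, which had the highest level. rno-miR-222-3p, abundant in endothelium, had 0.69 and 0.14, and rno-miR-652-3p had 0.69 and -0.07 (unadjusted interaction p of 0.028, edgeR). More even over the times were rno-miR-3585-3p, with 0.66 and 0.38, and rno-miR-27a-3p, of the miR-23a cluster, with 0.37 and 0.22, though the pooled interval of the latter held zero (-0.01 to 0.61).

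Among these miRNAs of smallest p, those lower with morphine were mostly more abundant, and their differences mostly smaller. An exception was rno-miR-27a-3p, higher by 0.30 at a mean of 966 CPM, beside -0.34 at 444 CPM for rno-miR-293-5p. Choice by smallest p admits scarce miRNAs chiefly with large differences, so this relation came in part from the choice. rno-miR-340-5p ranged from 3827 to 7619 CPM in F0_SAL (median 5445) and from 3268 to 4950 in F0_MOR (median 4481). In F0_ABS-SAL it was 3082, 4280, 4561, 4966 and 5303 CPM, and in F0_ABS-MOR it ranged from 3067 to 4770 (median 3716). All 7 F0_MOR and 4 of 6 F0_ABS-MOR libraries were below the saline mean of their time, with overlap at both. The pooled log2 fold change was -0.31 (interval -0.56 to -0.06, edgeR adjusted p = 0.929). rno-miR-30e-5p had a pooled log2 fold change of -0.29 but -0.47 in nonabstinent and -0.05 in abstinent males. rno-miR-293-5p, of a cluster known from embryonic stem cells, had -0.34, and rno-miR-471-5p, of the X-linked testis cluster, had -0.27.

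**Figure D2:**
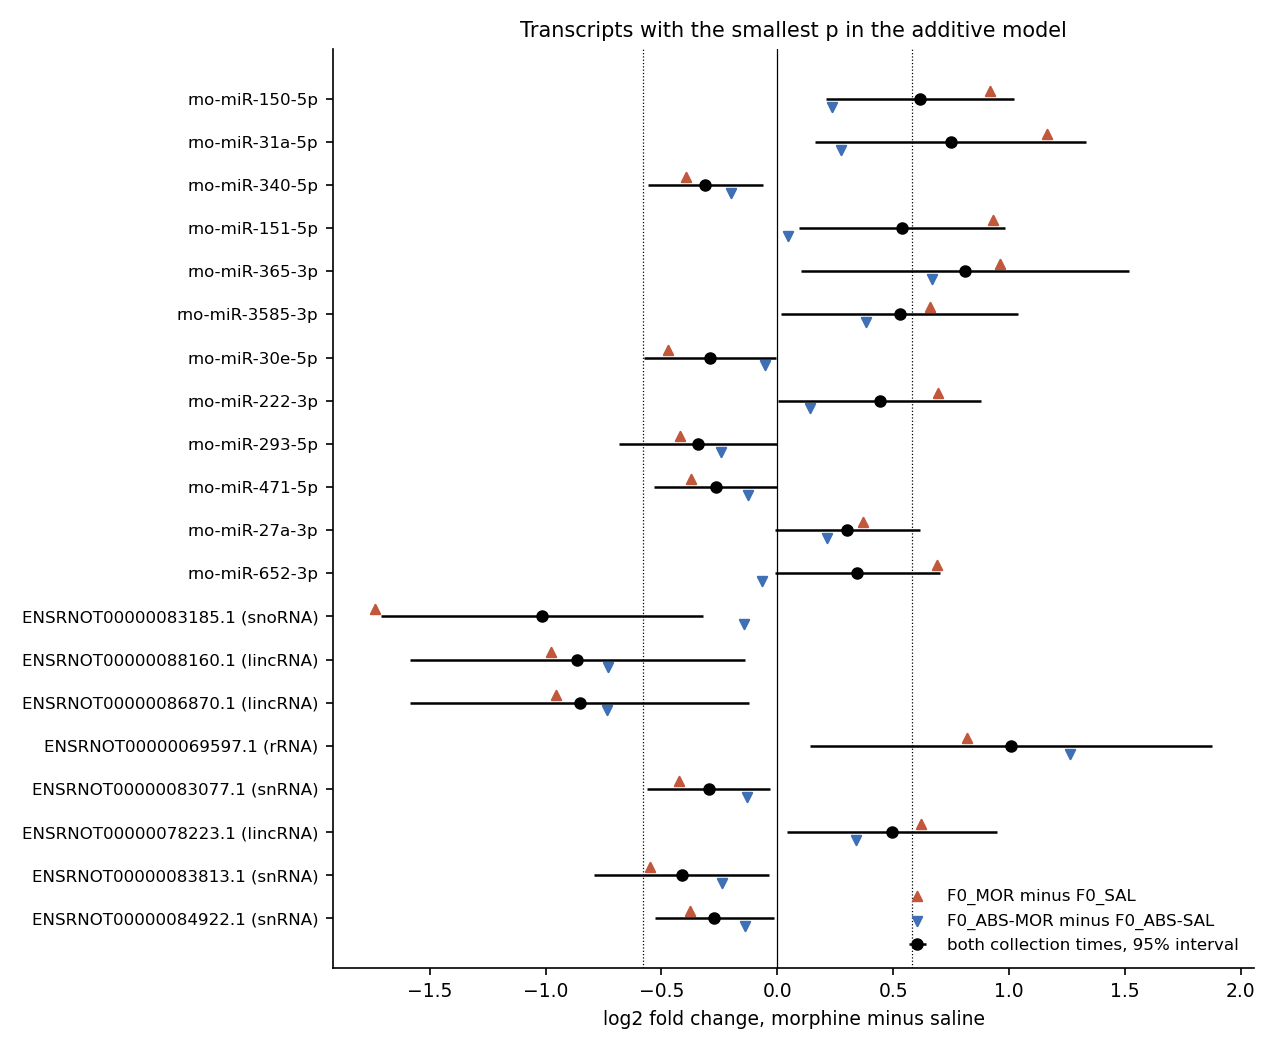
Log2 fold change, morphine minus saline (horizontal axis), of the 12 miRNAs and 8 ncRNAs with the smallest p in the additive model (vertical axis). Black points with bars are the pooled value and its 95% interval, upward triangles F0_MOR minus F0_SAL and downward triangles F0_ABS-MOR minus F0_ABS-SAL; dotted lines mark 0.58. The nonabstinent triangles of rno-miR-151-5p (0.93) and ENSRNOT00000083185.1 (-1.74) stand far from their abstinent ones (0.05 and -0.14).

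Across all transcripts, the direction of the morphine difference in nonabstinent males said little about its direction in abstinent males. The sign was shared by 158 of 317 miRNAs (49.8%) and 258 of 482 ncRNAs (53.5%). The correlation of the log2 fold changes over transcripts, which are not independent replicates, was -0.02 for miRNAs and -0.02 for ncRNAs (Pearson; Spearman 0.02 and -0.03). These contrasts have no library in common. In the 4-group model, 23 miRNAs (7.26%) had an unadjusted p under 0.05 between F0_MOR and F0_SAL. Of these, 10 (43.5%) had the same sign after abstinence and 0 were beyond 0.58 in that direction. Of the 25 ncRNAs (5.19%) at that threshold, 12 (48%) had the same sign and 0 were beyond 0.58 in that direction. For the abstinent contrast, F0_ABS-MOR minus F0_ABS-SAL, the counts were 4 miRNAs (1.26%) and 1 ncRNA (0.207%), of which 2 and 0 had the same sign in nonabstinent males. The 4 miRNAs, named here after their values were seen, were rno-miR-126a-5p, rno-miR-324-3p, rno-miR-488-3p and rno-miR-24-1-5p, and the ncRNA was the lincRNA ENSRNOT00000077355.1.

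The interaction itself was called for 0 miRNAs and 0 ncRNAs, with 10 (3.15%) and 23 (4.77%) at an unadjusted p under 0.05 by edgeR. Within-time log2 fold changes beyond 0.58 in opposite directions were found for 2 miRNAs, named after their values were seen, and 8 ncRNAs. rno-miR-24-1-5p had -0.68 in nonabstinent and 1.08 in abstinent males, with the smallest interaction p among miRNAs (edgeR adjusted p = 0.467), and rno-miR-292-3p had 0.62 and -1.44.

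**Figure D3:**
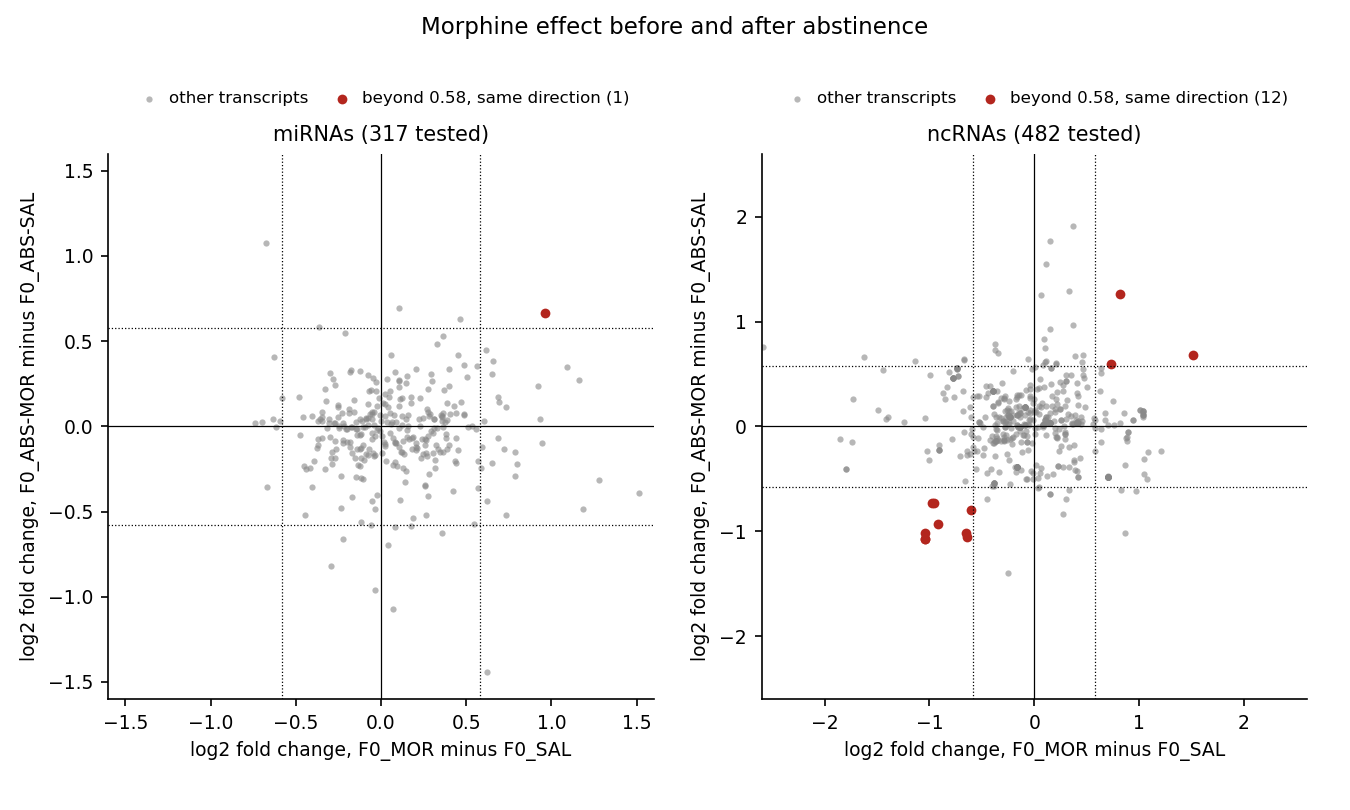
Log2 fold change of F0_MOR minus F0_SAL (horizontal axis) against F0_ABS-MOR minus F0_ABS-SAL (vertical axis), each point 1 transcript, for miRNAs (left) and ncRNAs (right). Dotted lines mark 0.58 in either direction, and red points lie beyond it in the same direction at both times, 1 miRNA and 12 ncRNAs.

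Only rno-miR-365-3p among the miRNAs was beyond 0.58 in the same direction at both times (1 of 317, 0.315%). It ranged from 0 to 6.27 CPM in F0_SAL (median 3.40) and from 2.09 to 16.7 in F0_MOR (median 5.67). It was 3.51, 4.23, 4.80, 6.75 and 12.2 CPM in F0_ABS-SAL and ranged from 5.05 to 17.6 in F0_ABS-MOR (median 9.38). The levels overlapped at both times, with 4 of 7 F0_MOR and 5 of 6 F0_ABS-MOR libraries above the saline mean in CPM. The pooled log2 fold change was 0.81 (standard error 0.35, interval 0.10 to 1.52, edgeR adjusted p = 0.929), from 0.96 and 0.67. These values rested on 0 to 43 counts per library. The F0_SAL library at 0 allows a level of up to 2.71 CPM (3 counts, for counting error only). The difference moved between 0.60 and 0.97 as each library was left out.

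**Figure D4:**
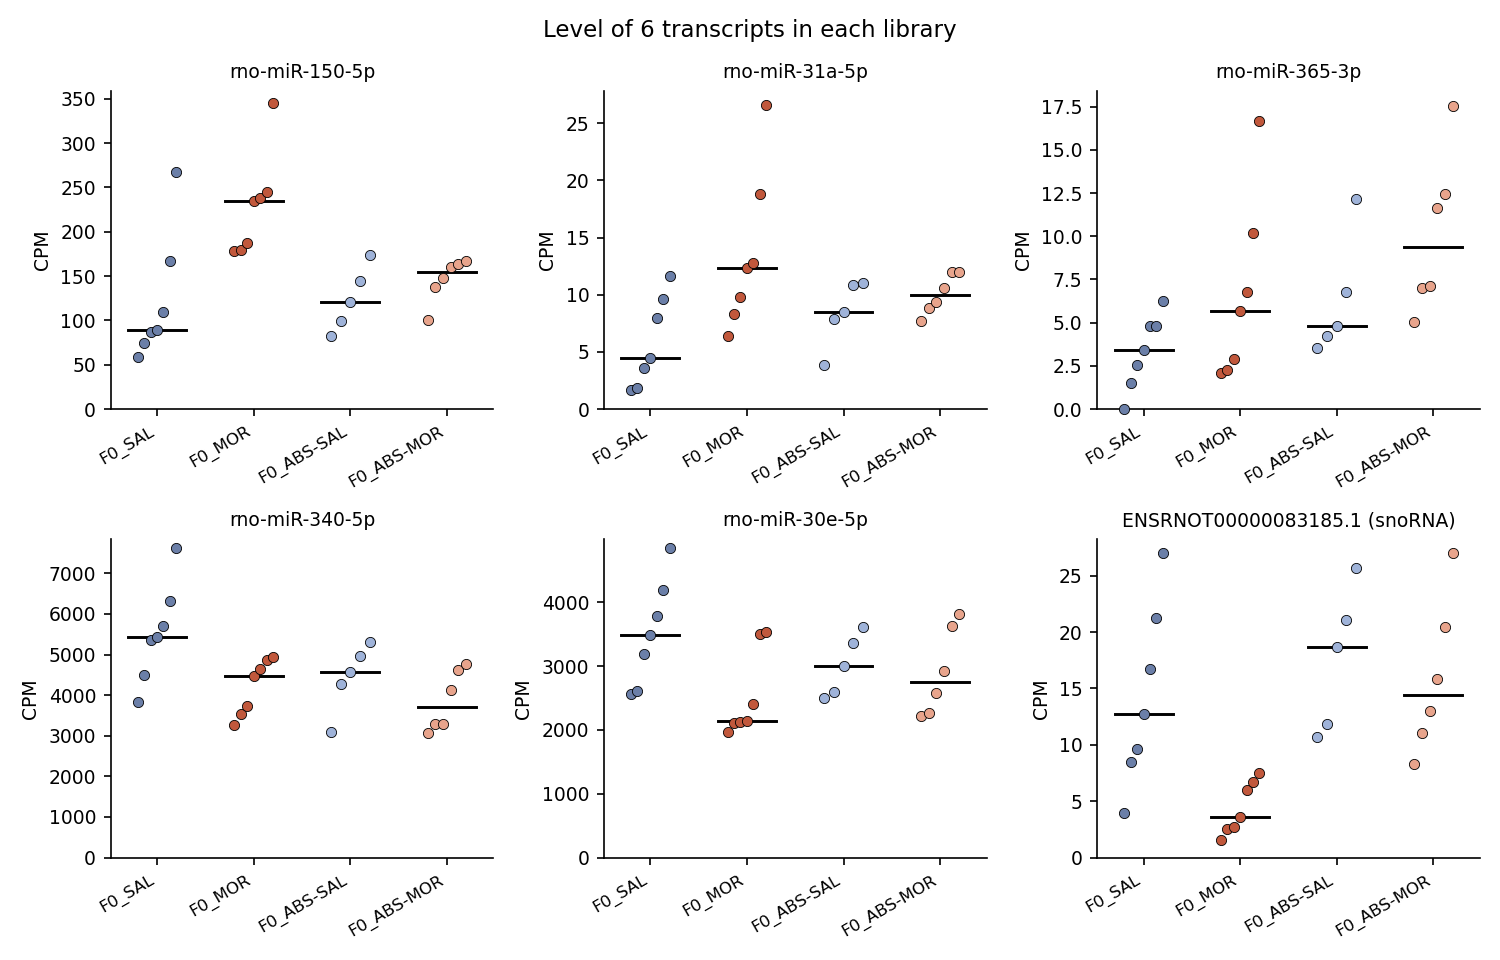
Level in CPM (vertical axes, from 0) of 5 miRNAs and 1 snoRNA in each of the 25 libraries, by group, with black lines at group medians. F0_MOR and F0_SAL medians were 235 and 89.4 for rno-miR-150-5p, 12.3 and 4.44 for rno-miR-31a-5p, and 3.58 and 12.8 for the snoRNA, and the groups overlap in every panel at both times.

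Of the ncRNAs, 12 were beyond 0.58 in the same direction at both times (2.49%), 9 lower and 3 higher, which made 11 distinct sets of counts because some transcripts had identical counts in every library. They were scarce, with mean levels of 1.74 to 6.63 CPM. Long intergenic RNAs (lincRNAs) made up 6 of them. ENSRNOT00000088160.1 ranged from 2.32 to 18.3 CPM in F0_SAL (median 3.74) and from 1.38 to 6.81 in F0_MOR (median 3.64). It was 3.81, 7.75, 11.2, 14.1 and 17.0 in F0_ABS-SAL and ranged from 1.56 to 10.7 in F0_ABS-MOR (median 6.55). The medians of the nonabstinent groups were close, and the group means differed chiefly through 1 F0_SAL library; without it the pooled log2 fold change went from -0.86 to -0.63. ENSRNOT00000086870.1 had nearly the same counts and a pooled value of -0.85. With log2 total count as a covariate the values of this pair were -0.39 and -0.38, and with total count scaling -0.50 and -0.50. ENSRNOT00000082096.1, also a lincRNA, had -0.92 and -0.93 at the nonabstinent and abstinent times and a pooled value of -0.92 (interval -1.80 to -0.05). ENSRNOT00000071943.1, a miRNA hairpin in Ensembl, had -1.04 and -1.07. The rRNA transcript ENSRNOT00000069597.1 was higher, with 0.82 and 1.26 and a pooled value of 1.01 (interval 0.14 to 1.88), on 48 counts in the F0_MOR library with the highest level and 15 or fewer in all others. For all of these the edgeR adjusted p was 0.82.

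The ncRNA with the smallest pooled p was the snoRNA ENSRNOT00000083185.1, of a class that guides chemical modification of ribosomal RNA. It ranged from 3.95 to 27.0 CPM in F0_SAL (median 12.8) and from 1.58 to 7.5 in F0_MOR (median 3.58). It was 10.7, 11.9, 18.6, 21.1 and 25.7 CPM in F0_ABS-SAL and ranged from 8.33 to 27.0 in F0_ABS-MOR (median 14.4). All 7 F0_MOR libraries were below the F0_SAL mean, whereas the abstinent groups overlapped over most of their range. The pooled log2 fold change of -1.01 (standard error 0.34, edgeR adjusted p = 0.82) averaged -1.74 in nonabstinent and -0.14 in abstinent males, and the interaction gave an unadjusted edgeR p of 0.0147 (adjusted over all ncRNAs, 0.912).

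By class, the 27 ncRNAs with an unadjusted p under 0.05 held 17 small nuclear RNAs (snRNAs), parts of the spliceosome, but only 7 of their 16 distinct sets of counts were snRNA sets. All 17 such snRNAs, of 61 tested, were lower with morphine, with log2 fold changes of -0.41 to -0.26. Near-identical copies share reads, so which copy a read came from is uncertain. ENSRNOT00000083077.1 ranged from 3162 to 5469 CPM in F0_SAL (median 3675) and from 2170 to 3734 in F0_MOR (median 2914). It was 9744, 11364, 16115, 17835 and 17928 CPM in F0_ABS-SAL and ranged from 10716 to 15903 in F0_ABS-MOR (median 13542). Its pooled log2 fold change of -0.30 (edgeR adjusted p = 0.82) stood beside a collection-time value of 1.97, and it turned to 0.03 when libraries were scaled by total count alone. That scaling moved the median log2 fold change of all ncRNAs from -0.01 to 0.28 and of all miRNAs from 0.03 to 0.14. ENSRNOT00000084922.1, another snRNA, went from -0.27 to 0.05 with it, and ENSRNOT00000083813.1 from -0.41 (-0.55 in nonabstinent and -0.24 in abstinent males) to -0.045.

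The median log2 fold change was -0.02 over the 61 snRNAs, -0.08 over 22 snoRNAs (20 lower and 2 higher), -0.08 over 127 lincRNAs, -0.02 over 80 misc_RNAs and 0.08 over 86 rRNAs, against -0.01 over all 482. With total count scaling these medians were 0.34, 0.26, 0.22, 0.28 and 0.40 beside 0.28 over all ncRNAs, and 20 of the 22 snoRNAs were then higher, so the direction of a class holds relative to the scaling only. None of these classes had a called member. The lincRNA ENSRNOT00000078223.1 was higher with morphine in 7 of 7 F0_MOR and 5 of 6 F0_ABS-MOR libraries when set against the saline means, with a pooled value of 0.50 (edgeR adjusted p = 0.82).

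For the composition of the libraries by RNA class, 7 measures were tested on the log2 scale by exact permutation within collection time, two-sided. The smallest p was that of the share of ncRNA counts on misc_RNA, the Ensembl class that holds Y RNAs and the RNA of the signal recognition particle. It ranged from 4.62% to 8.42% in F0_SAL (median 6.04%) and from 6.07% to 10.8% in F0_MOR (median 8.16%). In F0_ABS-SAL it was between 2.83% and 4.95% (median 4.73%), and in F0_ABS-MOR between 4.10% and 6.26% (median 4.62%). The groups overlapped at both times. The log2 difference was 0.33 (exact p = 0.0109, adjusted over the 7 tests 0.0762), from 0.43 in nonabstinent males (exact p = 0.0245) and 0.20 in abstinent males (exact p = 0.31). As a share of the ncRNA counts other than mitochondrial rRNA, a denominator added after seeing the data, misc_RNA differed by 0.15 (exact p = 0.288). On that denominator the nonabstinent medians were 25.3% in F0_SAL and 26.6% in F0_MOR (log2 difference 0.05, exact p = 0.811), and the abstinent medians 7.76% in F0_ABS-SAL and 10.3% in F0_ABS-MOR (log2 difference 0.28, exact p = 0.175). The mitochondrial rRNA share itself had medians of 76.1% and 68.1% in these groups and of 50.9% and 51.3% in F0_ABS-SAL and F0_ABS-MOR (log2 difference -0.05, exact p = 0.584, adjusted 0.877). The share of ncRNA counts on nuclear rRNA differed by 0.39 (exact p = 0.0887, adjusted 0.311). The miRNA share of all counts differed by 0.01 and the number of miRNAs with at least 10 counts by -0.01 on the log2 scale (adjusted exact p = 0.882 and 0.877).

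**Figure D5:**
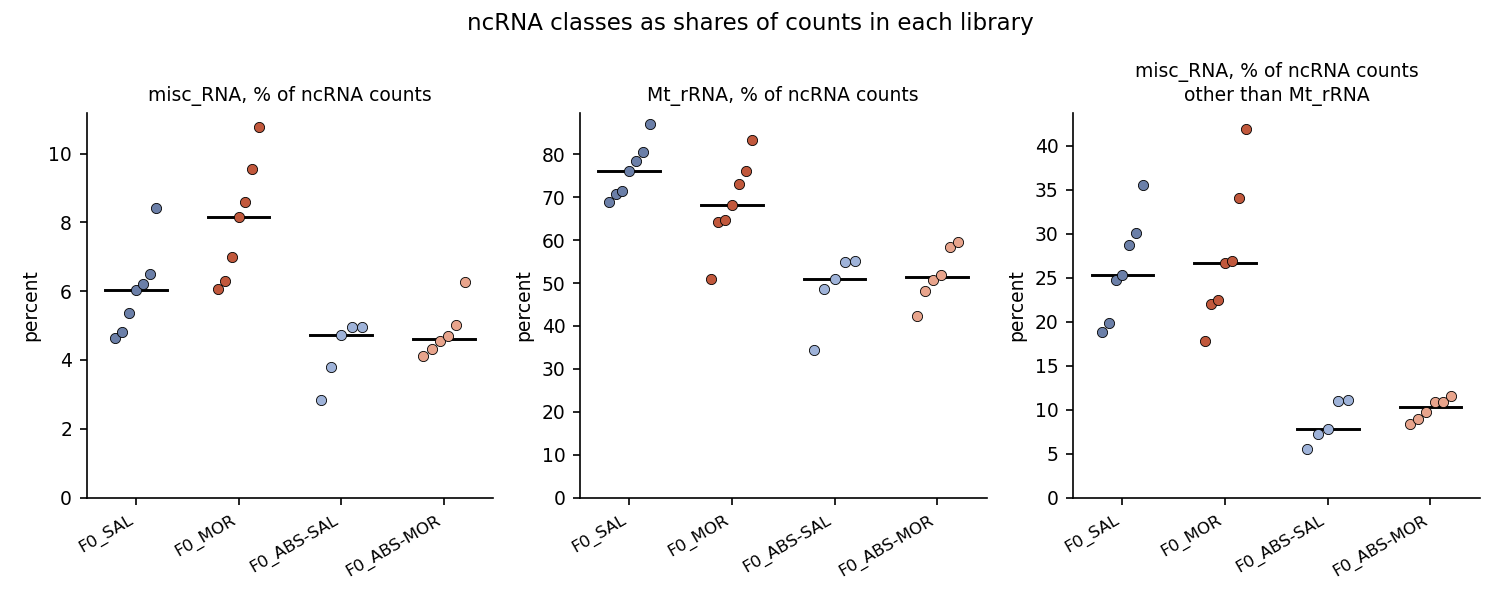
Shares of counts in percent (vertical axes, from 0) in each library, by group, with black lines at group medians: misc_RNA in all ncRNA counts, mitochondrial rRNA in all ncRNA counts, and misc_RNA in ncRNA counts other than mitochondrial rRNA. In the first panel the F0_MOR median is 8.16% against 6.04% in F0_SAL; in the third these are 26.6% and 25.3%, with 10.3% in F0_ABS-MOR and 7.76% in F0_ABS-SAL.

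Lists of miRNAs by cell type or family held 0 called members each, and their medians lay between -0.21 and 0.18 beside 0.03 over all miRNAs. Counts of higher and lower members depend on the scaling: with TMM 173 of 317 miRNAs were higher, with total count 231, and with a factor from both matrices joined 109. The germ cell miRNAs of the miR-34 and miR-449 families were present at 175481 to 742779 CPM in sum, with 4 of 6 tested members lower and a median log2 fold change of -0.07. In the testis X-linked cluster 8 of 10 were lower (median -0.09), with -0.24 in nonabstinent and 0.12 in abstinent males. In that cluster rno-miR-880-3p had the smallest p, with -0.58 and 0.16 at the nonabstinent and abstinent times (unadjusted interaction p of 0.046, edgeR). Of 14 let-7 family members, a deeply conserved group of differentiation miRNAs, 9 were higher (median 0.10). rno-let-7e-5p had the smallest p among them, with 0.56 in nonabstinent and -0.02 in abstinent males.

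Markers of other cells that an epididymal sperm preparation could hold were detected in these libraries. Of 12 epithelial miRNAs 9 were higher (median 0.14), with rno-miR-31a-5p first by p. Their summed level ranged from 7500 to 11853 CPM in F0_SAL, 8387 to 11996 in F0_MOR, 9478 to 20046 in F0_ABS-SAL and 9631 to 18158 in F0_ABS-MOR, and rno-miR-200c-3p and rno-miR-205 were above 0 in every library. Of 5 endothelial miRNAs 3 were higher (median 0.18), all from the miR-221 and miR-222 hairpins. Both arms of miR-126a were lower, with -0.19 for rno-miR-126a-3p and -0.30 for rno-miR-126a-5p. Of 3 erythroid miRNAs 1 was higher (median -0.01), and rno-miR-144-3p, first by p, had -0.23 (interval -0.63 to 0.17). The median of the erythroid list was 0.26 in nonabstinent and -0.35 in abstinent males. Of 7 muscle miRNAs 6 were lower (median -0.21, and -0.09 with total count scaling), led by rno-miR-1-3p with -0.54 (interval -1.35 to 0.27). The median of the muscle list was -0.12 in nonabstinent and -0.56 in abstinent males. Yet its median summed level was 19687 CPM in F0_ABS-SAL and 23243 in F0_ABS-MOR, with maxima of 82088 and 36722. In F0_SAL and F0_MOR the median sums were 15722 and 14898 CPM. The part of other cells in the transcript values was not tested.

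In the lists tied to the nervous system and to opioid and stress reports no member had an unadjusted p under 0.05 by edgeR. Of 10 neural miRNAs 6 were higher (median 0.09), with rno-miR-7a-1-3p first by p. That miRNA had 0.33 in nonabstinent and 0.48 in abstinent males, and 6 of 6 F0_ABS-MOR libraries were above the F0_ABS-SAL mean (pooled 0.40, interval -0.03 to 0.84). Of 12 miRNAs from reports on opioid signalling 7 were higher (median 0.06), and rno-miR-190a-5p had -0.51 (interval -1.06 to 0.04). Of 12 from reports on paternal stress 8 were lower (median -0.10), and rno-miR-32-5p had -0.46 in nonabstinent and 0.06 in abstinent males. Of 5 miRNAs often used as references, rno-miR-425-5p among them, 2 were higher (median -0.01) and 5 of 5 had intervals within 0.58 of zero.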

How the data were processed

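Both tables hold unnormalized counts as the authors deposited them, one of 562 mature miRNAs and one of 3804 ncRNA transcripts from Ensembl, for all 25 libraries. Per the study's methods, sRNAbench aligned trimmed, quality-filtered forward reads to the rat genome (rn6) and annotated them to miRBase and then to Ensembl ncRNAs; the smallest count above 0 is 2 in every library. In R 4.3.3, each matrix was filtered (edgeR filterByExpr over the 4 groups), TMM-normalized and fitted with edgeR 4.0.16 (quasi-likelihood, treatment plus collection time); within-time effects came from a 4-group model. The standard error was taken as the fold change over the square root of F. CPM are TMM-scaled. Exact permutation tests (Python 3.11.15, numpy 2.4.6) enumerated all 1585584 relabellings of log2 CPM with a prior count of 2. Alternatives used DESeq2 1.42.0, limma 3.58.1 and sva 3.50.0. The scripts were tested on simulated data.

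Transcripts named are those with the smallest pooled p (12 miRNAs, 8 ncRNAs), the first of each list, the 3 most abundant miRNAs, the 6 first by p beyond 0.58 at both times, rno-miR-150-5p and ENSRNOT00000083185.1. The comparison, lists and rule were chosen with earlier results of these data known. Gene names were not used for ncRNAs, none of whose identifiers matched the RefSeq table.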

Additional observations from a re-analysis of the deposited data

Results flagged for a closer look

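In 5 of the 168 groups of values looked at, the highest or lowest library stood far from all others, by a gap that chance gives in about 1 in 20 groups. In F0_ABS-MOR, rno-miR-1-3p was lowest in library X, with a log2 CPM of 0.052 against 2.63 in the next, and rno-miR-425-5p was highest in library S, with 11.37 against 10.93. In F0_ABS-SAL, the log2 mitochondrial rRNA share in percent was lowest in library R, with 5.11 against 5.60. In F0_SAL, library O had the lowest log2 snRNA share in percent, with 2.33 against 3.32, and the highest log2 ncRNA total count, with 22.63 against 21.76. Left out in turn, none of these libraries brought a called transcript in the pooled comparison.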

How the results depend on the processing

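The count of called transcripts was 0 for miRNAs and 0 for ncRNAs under each alternative tried with both collection times in the model, except for miRNAs with limma-voom and sample quality weights (1 called, rno-miR-150-5p). Leaving out each library in turn gave 0 to 1 miRNAs, again rno-miR-150-5p, without F0_SAL library H, and 0 ncRNAs throughout. For ncRNAs with no filter on low counts, the smallest edgeR adjusted p was 3.6e-15. The 0 calls in that fit thus came from the fold change part of the rule, not from the adjusted p. F0_MOR against F0_SAL fitted alone called 0 of 274 miRNAs and 19 of 319 ncRNAs. These were the snoRNA ENSRNOT00000083185.1 and 18 snRNA copies in 8 distinct sets of counts, the copies being higher by 0.77 to 0.78. The same copies had -0.48 in abstinent males and 0.18 pooled. The abstinent medians of ENSRNOT00000077081.1, of this set, went the other way, with 148 CPM in F0_ABS-SAL and 214 in F0_ABS-MOR. Its maxima were 859 CPM in F0_ABS-SAL and 451 in F0_ABS-MOR. Its nonabstinent medians were 152 CPM in F0_SAL and 235 in F0_MOR. F0_ABS-MOR against F0_ABS-SAL fitted alone called 0 and 0.

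Among 1213 refits of the pooled value of the 33 named transcripts, 10 turned the direction and 29 transcripts kept it in all. With total count scaling ENSRNOT00000083077.1 became 0.028, ENSRNOT00000084922.1 0.051 and rno-miR-425-5p 0.065. With log2 total count as a covariate rno-miR-425-5p became 0.012 and rno-miR-148a-3p -0.064. The latter was also -0.061 with a factor from both matrices joined, and ranged from -0.066 to 0.160 as each library was left out, below zero without F0_SAL libraries O or W, F0_MOR library T or F0_ABS-MOR library Q. Without turning direction, other pooled values moved by over 1.5 times, among them these. Total count scaling gave -0.20 for rno-miR-340-5p, -0.18 for rno-miR-30e-5p, -0.15 for rno-miR-471-5p, 0.77 for ENSRNOT00000078223.1 and -0.59 for ENSRNOT00000082096.1. The log2 total count covariate gave 0.24 for rno-miR-222-3p and 0.19 for rno-miR-27a-3p. Leaving out 1 library gave 0.21 and 0.23 for rno-miR-652-3p (F0_SAL W, F0_MOR B), 0.18 for rno-let-7e-5p (F0_MOR M) and 0.20 for rno-miR-27a-3p (F0_SAL O). The snRNA share differed by -0.78 percentage points on the linear scale but by 0.06 on the log2 scale. The misc_RNA share differed by 0.28 to 0.37 as each library was left out, and by 0.15 with mitochondrial rRNA out of the denominator, both added after seeing the data. The causes were not tested.

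Counts at an unadjusted p under 0.05 moved more. The number of transcripts tested also changed with some settings. For miRNAs, 9 of 317 became 25 of 317 with limma-voom and 26 of 562 with no filter. It became 14 of 317 with total count scaling and with 1 surrogate variable, and 5 to 18 as libraries were left out. For ncRNAs, 27 of 482 became 47 of 3804 with DESeq2, a smaller share. With no filter it became 541 of 3804, in the edgeR fit whose smallest adjusted p was 3.6e-15. Of the same 482, the count was 5 with the joined factor and 6 with treatment alone in the model. It was 15 of 482 with log2 total count as a covariate. A minimum of 10 counts in every library gave 8 of 197, and identical counts reduced to 1 gave 8 of 407. The range was 7 to 34 as libraries were left out. The median log2 fold change of all ncRNAs was -0.12 with DESeq2 size factors and 0.07 with the joined factor.

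No paired analysis was possible because the column names carry letters and no replicate numbers. Scarce ncRNAs had wide intervals, 1 of 240 in the lower part by level lying within 0.58 of zero. For the rest of that part the intervals reached beyond 0.58, so they did not exclude a shared change of that size.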

Other observations

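miRNAs that have the same seed as the named ones, and the other arm of their hairpins, are given here as values, without a test of the group. Of the 8 tested miRNAs with the seed of rno-let-7e-5p, 6 were higher with morphine, with log2 fold changes from -0.06 to 0.30. rno-miR-221-3p, with the seed of rno-miR-222-3p (0.44), had 0.18, and rno-miR-30c-5p and rno-miR-30a-5p, with the seed of rno-miR-30e-5p (-0.29), had -0.06 and -0.15. rno-miR-292-5p, with the seed of rno-miR-293-5p, had the same -0.34. Among opposite arms, rno-miR-31a-3p had -0.32 where rno-miR-31a-5p had 0.75, rno-miR-151-3p had 0.07 where rno-miR-151-5p had 0.54, and rno-miR-340-3p had 0.05 where rno-miR-340-5p had -0.31. All of these had an unadjusted edgeR p of at least 0.103.

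rno-miR-25-5p and rno-miR-322-5p, named after their values were seen, completed the 5 miRNAs with a pooled log2 fold change beyond 0.58. They had 0.58 and 0.65 pooled, 1.28 and 1.09 in nonabstinent males, and -0.31 and 0.35 in abstinent males.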
